A study of Rattus norvegicus with 6 samples.

Results

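Collagens and the enzymes that build them were compared between a pair of cell fractions prepared from the rat renal inner medulla, the deep zone of the kidney that ends in the papilla. The group held every gene whose symbol names a collagen chain (Col followed by a type and chain number), a prolyl 4-hydroxylase subunit (P4ha1 to P4ha3), a lysyl hydroxylase (Plod1 to Plod3), a lysyl oxidase (Lox and the Loxl genes) or the chaperone Serpinh1. This gave 52 genes, 41 collagens and 11 enzyme or chaperone genes, measured by 73 probe sets, out of 14217 genes on 31042 tested probe sets. Where a gene had several probe sets, the one with the highest mean log2 value over the 6 arrays stood for it.

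Low-speed centrifugation pelleted the IMCD fraction, named for the inner medullary collecting duct whose cells it is enriched in, and the nonIMCD fraction was spun down from what stayed in its supernatant. Each was measured on 3 Affymetrix rat expression arrays. All 6 preparations came from male Sprague-Dawley rats given 1 mg furosemide, a loop diuretic, in the abdomen 30 min before death, and collagenase B with hyaluronidase had digested the tissue at 37 °C over 75 min. No untreated or undigested tissue was analysed here, and both fractions share the drug and an enzyme that cuts collagen protein. The age label of IMCD replicate 1 reads 6 weeks and that of the other 5 arrays reads 10 weeks. The labels give 7 rats and 3 pairs of fractions without saying which rats or arrays belong together, so the p-values rest on how far arrays of 1 fraction differ, which may be technical. Both fractions are mixtures, and a lower signal from fewer cells of a type cannot be told apart from less RNA per cell.

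Collagen chains wind around each other into a helix of repeating glycine-led units. In the endoplasmic reticulum prolyl 4-hydroxylases add the hydroxyl groups that make this helix stable, lysyl hydroxylases modify lysines, and Serpinh1 (also called Hsp47) holds the folded procollagen until it leaves. Outside the cell propeptides are cut off and lysyl oxidases start the cross-links between molecules. In the kidney, type IV collagen forms the basement membranes under tubule cells and around vessels, and the fibril-forming collagens belong mainly to the interstitial cells between them.

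The 6 arrays had been scaled to 1 trimmed mean by the authors. The median intensity was 269 to 272 in IMCD and 329 to 339.95 in nonIMCD, and the 3' to 5' signal ratio of Actb, a sign of RNA integrity, was 1.76 to 1.90 in IMCD and 2.46 to 3.37 in nonIMCD. Of 6 collecting duct principal cell markers 5 were higher in IMCD, with a summed intensity of 125035 to 133432 in IMCD and 64175 to 81961 in nonIMCD. The exception was the water channel Aqp2, at 47833, 53804 and 56084 in IMCD and 37998, 41265 and 50634 in nonIMCD (adjusted p = 0.261), so collecting duct RNA was also present in nonIMCD. Markers of other cells were lower in IMCD for 3 of 6 interstitial fibroblast and pericyte genes (summed intensity 2016 to 2182 in IMCD and 20353 to 20798 in nonIMCD) and for 1 of 4 smooth muscle genes (1519 to 2080 in IMCD and 1558 to 1708 in nonIMCD). Most of the fibroblast and pericyte sum was Vim (mean 1406 in IMCD and 18636.5 in nonIMCD), so that sum mainly follows 1 gene. The other genes that passed had smaller means, Rgs5 253 in IMCD and 966 in nonIMCD, and Pdgfrb 80.8 and 300. Pdgfra, Cspg4 and Thy1 did not pass. The lower smooth muscle gene was Des. Acta2, Myh11 and Cnn1 leaned higher in IMCD, by 0.33, 0.11 and 0.65 on the log2 scale, and did not pass. Cnn1 was above the background level given below on only 1 of 3 arrays of each fraction. Its 0.65 (SE 0.75) is thus not a measured size. Markers lower in IMCD also included 5 of 5 endothelial genes (8931 to 10899 in IMCD and 36513 to 41044 in nonIMCD), 6 of 6 leukocyte genes (456 to 693 in IMCD and 40542 to 45894 in nonIMCD) and 3 of 3 thin limb genes (4571 to 7194 in IMCD and 59569 to 82221 in nonIMCD). None of 4 urothelial genes passed (0 lower, 0 higher, summed intensity 236 to 285 in IMCD and 264 to 505 in nonIMCD). Of these genes 0 were above that background level on all 6 arrays. No marker was listed at 0 on any array. The part of these cell types, and of RNA integrity, in the differences below was not tested.

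Every collagen or collagen-enzyme gene that passed the test was lower in the IMCD fraction. In limma's test across all probe sets, 20 of the 52 genes (38.5%) were lower in IMCD at an adjusted p under 0.05 and 0 were higher, against 15.7% of all genes called lower and 10.0% called higher. The median log2 difference, IMCD minus nonIMCD, was -0.66 over the 52 genes and -0.09 over all 14217 genes. By the fitted difference 17 of the 52 genes were called and at least 2-fold lower, against 9.85% of all 14217 genes. Col8a1 is among the 17, although its signal gives a bound of only 1.57-fold. For 25 genes (48.1%) every IMCD array lay below every nonIMCD array, which held for 28.7% of all genes. P4ha1 alone had every IMCD array above every nonIMCD array, which held for 20.0% of all genes. The shares of all genes called lower (15.7%) and higher (10.0%) also apply to the counts by role below. The members varied more between arrays than genes did in general, with a median SD of the log2 value of 0.34 in IMCD and 0.29 in nonIMCD, against 0.18 and 0.20 over all genes. They were also dimmer, with array medians of 6.91 to 7.60 on the log2 scale, against 9.26 to 9.57 over all genes. The SD comparison was not matched for brightness.

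**Figure D1:**
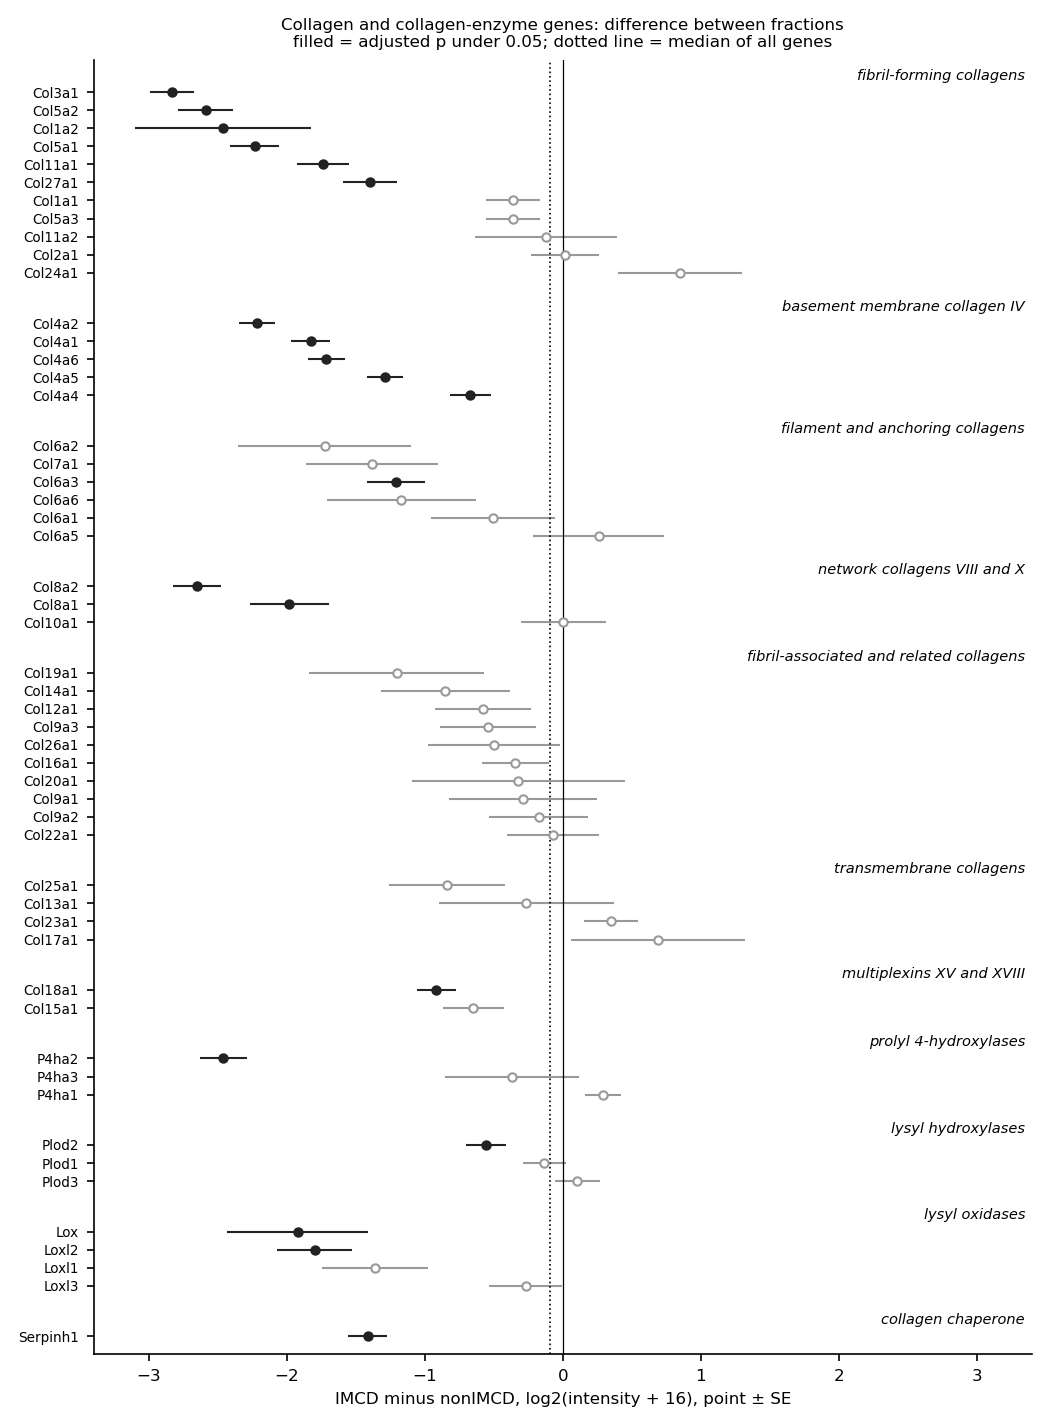
Difference between the fractions for all 52 genes, by role. The horizontal axis is the IMCD minus nonIMCD difference of log2(intensity + 16), points are estimates and bars are SE. Filled points passed an adjusted p of 0.05, and the dotted line is the median of all genes at -0.09. The 20 filled points all lie left of 0, from Col3a1 at -2.83 to Plod2 at -0.56.

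Many members were dim. The bacterial tryptophan control, a sequence absent from rats that 3 probe sets measure, reached at most 78.4 on these arrays, and that value is used here as the level of background. Of the 52 genes 28 were above it on all 6 arrays, 8 were at or under it on every IMCD array but not on every nonIMCD array, and 4 (Col24a1, Col5a3, Col9a1 and Col25a1) were at or under it on all 6. Differences are on the log2(intensity + 16) scale, which understates those of dim genes. For a gene at or under background on every IMCD array the fitted difference is not a measured size, and where such a gene was called its bound is given.

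Basement membrane collagen was lower in IMCD for every chain measured. All 5 type IV genes passed the test, with differences of -2.22 to -0.67 and a median of -1.71. Chains of this type combine as alpha1 with alpha2, as alpha3 with alpha4 and alpha5, and as alpha5 with alpha6.

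Col4a1 and Col4a2 encode the chains found in nearly all basement membranes. Col4a2 had intensities of 673, 796 and 728 in IMCD, against 3343, 3744 and 3305 in nonIMCD. Its difference was -2.22 ± 0.13 (SE, adjusted p = 0.000434), a 4.65-fold lower signal in IMCD. Col4a1 had 1931, 2049.5 and 1756 in IMCD, against 6382, 6464 and 7670.1 in nonIMCD, a difference of -1.83 ± 0.14 (adjusted p = 0.000841). The arrays of the fractions were far apart for both genes, and a second Col4a1 probe set gave -1.91 (adjusted p = 0.000958).

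These genes lie head to head on chromosome 16 in the GRCr8 assembly, on opposite strands with 77 bases between their RefSeq start sites, so that their promoter windows share 176 bases. The windows are shown because both genes were lower together. Each runs from 250 bases before the start site to 50 after it, 5′ to 3′ on the gene's own strand, chr16:84885347-84885646 on the plus strand for Col4a1 and chr16:84885471-84885770 on the minus strand for Col4a2. Capitals mark the motif CCAAT on either strand (ATTGG when it is on the opposite one).
Col4a1: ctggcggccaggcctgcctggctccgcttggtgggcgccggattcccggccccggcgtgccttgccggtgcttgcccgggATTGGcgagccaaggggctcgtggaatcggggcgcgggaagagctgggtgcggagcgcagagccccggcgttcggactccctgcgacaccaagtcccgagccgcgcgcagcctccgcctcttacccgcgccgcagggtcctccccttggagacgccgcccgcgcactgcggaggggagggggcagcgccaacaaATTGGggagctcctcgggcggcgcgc
Col4a2: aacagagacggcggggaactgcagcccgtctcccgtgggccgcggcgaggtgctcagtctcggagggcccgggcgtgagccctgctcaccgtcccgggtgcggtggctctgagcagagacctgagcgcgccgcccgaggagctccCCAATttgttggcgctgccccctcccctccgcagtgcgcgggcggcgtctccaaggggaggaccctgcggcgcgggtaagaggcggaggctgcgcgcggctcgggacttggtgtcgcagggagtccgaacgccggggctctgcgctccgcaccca
The match in the Col4a2 window starts 105 bases before its start site, at chr16:84885621-84885625, and is the same stretch as the second match in the Col4a1 window, 25 bases into that gene. CCAAT was found in 10 of 44 windows of member genes and in 37.5% of all 33469 windows. RefSeq windows were matched for 41 of the 52 genes.

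Col4a5 and Col4a6, also on opposite strands (X chromosome), were lower too. Their RefSeq start sites are 1415 bases apart and their promoter windows share no bases. With genes sorted by lowest coordinate, 1 annotated gene falls between them, which need not lie between the start sites. Col4a6 had 442, 465 and 477 in IMCD, against 1761, 1435 and 1472 in nonIMCD, a difference of -1.71 ± 0.14 (SE, adjusted p = 0.000913), with -1.73 for its second probe set. Col4a5 had 10057, 11316 and 10271 in IMCD, against 24379, 24502 and 28631 in nonIMCD. It differed by -1.29 ± 0.13 (adjusted p = 0.00207), and the IMCD signal stayed far above background on every array.

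Col4a4, the partner of the alpha3 and alpha5 chains, showed the smallest difference of the type. Its intensities were 685, 697 and 819.8 in IMCD, against 1086, 1120.4 and 1330.1 in nonIMCD, without overlap (-0.67 ± 0.15, SE, adjusted p = 0.026). The call was lost without IMCD replicate 1 (-0.62) or 2 (-0.64), without nonIMCD replicate 1 (-0.73), 2 (-0.70) or 3 (-0.58), and under median centring (-0.38) or quantile normalization (-0.52), with adjusted p from 0.00344 to 0.105 over the alternatives. Within an array, where scaling cancels, the log2 ratio of Col4a2 to Col4a5 was -3.90, -3.83 and -3.82 in IMCD and -2.87, -2.71 and -3.12 in nonIMCD. The mean ratio was -3.85 in IMCD and -2.90 in nonIMCD, a gap of -0.95, so these type IV chains did not shift by the same amount. Such pairs were picked after their values were seen and carry no test.

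The fibril-forming collagens divided. Of 11 genes 6 were lower in IMCD, 0 were higher and 5 did not pass, with a median difference of -1.40. The lower genes were Col3a1, Col5a1, Col5a2, Col1a2, Col11a1 and Col27a1.

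Col3a1, the chain of type III collagen of reticular fibres, had the largest difference of all 52 genes. It had 190.5, 198 and 175 in IMCD, against 1613, 1536 and 1196 in nonIMCD. The difference was -2.83 ± 0.16 (SE, adjusted p = 0.000399), 7.13-fold lower in IMCD. Col5a2, which follows Col3a1 directly in RefSeq gene order on chromosome 9, differed by -2.59 ± 0.20 (adjusted p = 0.000886).

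Type V collagen is built into type I fibrils and limits their width. Col5a2 had 197, 179 and 118 in IMCD, against 1029.5, 1072 and 1049 in nonIMCD. Col5a1 had 166, 217 and 255 in IMCD, against 1020.3, 1094 and 1019.5 in nonIMCD (-2.23 ± 0.18, SE, adjusted p = 0.000944). A second probe set of each gene was also lower, at -1.98 for Col5a2 and -2.01 for Col5a1. The third type V gene, Col5a3, was under background on all 6 arrays.

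Col11a1, a type XI chain known best from cartilage, was well above background in both fractions. Its intensities were 2482, 2088 and 1602 in IMCD, against 7185, 6643 and 6609 in nonIMCD, a difference of -1.74 ± 0.19 (SE, adjusted p = 0.00239). Of its other probe sets, 1 gave -1.87 (adjusted p = 0.00428) and a dim one -0.70 (adjusted p = 0.197). Col27a1, another chain found in cartilage, had 407, 502 and 431 in IMCD, against 979.9, 1513 and 1162 in nonIMCD (-1.40 ± 0.20, adjusted p = 0.00586).

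Type I collagen, the main fibril protein of most connective tissue, gave a weak signal. Col1a2 had 118, 12.3 and 98.4 in IMCD, against 290.4, 559.7 and 397 in nonIMCD, with IMCD replicate 2 far under the others. Its difference of -2.46 ± 0.64 (SE, adjusted p = 0.0429) lost its call without IMCD replicate 1 (-2.88) or 3 (-2.76), without nonIMCD replicate 1 (-2.69), 2 (-2.23) or 3 (-2.47), with the replicate number as a block (-2.46) and in 3 other settings. Adjusted p ran from 0.00696 to 0.123 over the alternatives. A second Col1a2 probe set, under background on every IMCD array, was at least 2.81-fold lower in IMCD (adjusted p = 0.000776). Col1a1 had 125, 83.8 and 114 in IMCD, against 145, 166 and 116 in nonIMCD, which overlapped (-0.36 ± 0.20, adjusted p = 0.258).

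The other fibril-forming genes were at or near background. Col2a1, the chain of cartilage fibrils, showed a difference of 0.02 ± 0.25 on the probe set that stood for it (SE, adjusted p = 0.972), while a dimmer one was called lower (adjusted p = 0.0165) with a mean of 11.5 in IMCD and 70.0 in nonIMCD, both under background. Col11a2 (-0.12) and Col24a1 (0.85) did not pass either.

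**Figure D2:**
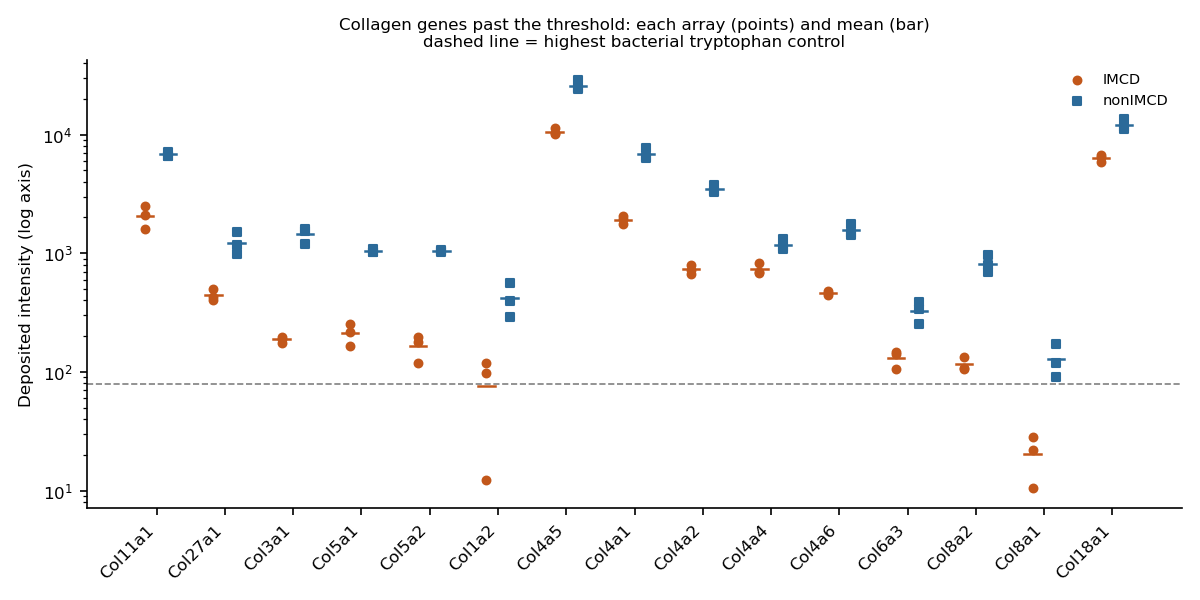
Deposited intensity, on a log axis, of the 15 collagen genes past the threshold. Points are single arrays, with IMCD (orange circles) left of nonIMCD (blue squares), and short bars are means of 3 arrays. The dashed line is the highest tryptophan control, 78.4. The IMCD points lie below the nonIMCD points for every gene shown, and all IMCD points of Col8a1 and 1 of Col1a2 lie under the line.

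Of 3 network collagens 2 were lower. Col8a2 and Col8a1 encode type VIII collagen, which forms lattices under endothelial cells. Col8a2 had 108, 135 and 105 in IMCD, against 961, 789 and 699 in nonIMCD (-2.65 ± 0.17, SE, adjusted p = 0.00054), next in size to Col3a1. Col8a1 had 22.0, 28.0 and 10.5 in IMCD, all under background, against 119.5, 90.8 and 173 in nonIMCD. Its signal was at least 1.57-fold lower in IMCD, taking the background value for IMCD, and the fit gave adjusted p = 0.0065. Col10a1 of hypertrophic cartilage had a difference of 0.00 ± 0.31 (adjusted p = 0.995).

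Of the filament and anchoring collagens 1 of 6 passed (16.7% lower, near the 15.7% of all genes). Col6a3, a chain of the beaded type VI filaments around cells, had 105, 147 and 141 in IMCD, against 254, 387 and 337 in nonIMCD (-1.21 ± 0.21, SE, adjusted p = 0.0119). Averaged with its dimmer probe set it gave -0.80 (adjusted p = 0.0702, with 0.00296 to 0.0702 over the alternatives). Col6a2, another chain of the same filament, had 18.3, 103 and 10.7 in IMCD, against 107, 236 and 111 in nonIMCD, and did not pass (-1.72 ± 0.63, adjusted p = 0.109). Without IMCD replicate 2, its highest IMCD array, Col6a2 passed (-2.38, adjusted p = 0.0201), as it did with the replicate number as a block (adjusted p = 0.0385). A dimmer Col6a2 probe set overlapped between the fractions and gave 0.18 (adjusted p = 0.844). Col6a1 overlapped between the fractions (-0.50, adjusted p = 0.48).

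The other members of this set lay mostly under background. Col7a1, the anchoring fibril chain of skin, had 26.9, 11.5 and 19.9 in IMCD, against 110.1, 121 and 27.6 in nonIMCD (-1.38 ± 0.48, SE, adjusted p = 0.0961). Without nonIMCD replicate 3 it passed (-1.91, adjusted p = 0.00962), as did Col6a6 (-1.73, adjusted p = 0.0329, against -1.17 and adjusted p = 0.187 with all arrays). Col6a5 differed by 0.26 (adjusted p = 0.744).

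The multiplexins, proteoglycan collagens of basement membrane zones, both lay below nonIMCD on every IMCD array, as did 28.7% of all genes. Of the 2 genes 1 was called lower, against 15.7% of all genes. Col18a1, the source of the fragment endostatin, had 6521, 6774 and 5827 in IMCD, against 11556, 13613 and 11069.6 in nonIMCD. It differed by -0.92 ± 0.14 (SE, adjusted p = 0.00819), with -1.29 (adjusted p = 0.0032) for a second probe set. Col15a1 had 189, 326 and 294 in IMCD, against 445, 431 and 392 in nonIMCD, and did not pass (-0.65 ± 0.22, adjusted p = 0.0921). It passed when dim probe sets were left out of the fit (adjusted p = 0.041).

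No fibril-associated or transmembrane collagen passed with all arrays and no block. The 10 fibril-associated and related genes had differences of -1.20 to -0.07, with a median of -0.42, and all 10 overlapped between the fractions. Of all 14217 genes 7296 overlapped. Col16a1, a chain found along fibrils and at cell surfaces, had 364, 289 and 246 in IMCD, against 346, 513 and 308 in nonIMCD (-0.34 ± 0.24, SE, adjusted p = 0.377). Col9a3 passed only without IMCD replicate 2 (-0.94, adjusted p = 0.0183, against -0.55 and adjusted p = 0.324 with all arrays). The rest of this set (Col9a1, Col9a2, Col12a1, Col14a1, Col19a1, Col20a1, Col22a1 and Col26a1) did not pass.

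The 4 transmembrane collagens had differences of -0.84 to 0.69 and overlapped as well. Col23a1 had 215, 197 and 164 in IMCD, against 118, 145 and 183 in nonIMCD (0.35 ± 0.19, SE, adjusted p = 0.262). Col17a1 of epithelial hemidesmosomes (0.69, adjusted p = 0.492), Col13a1 and Col25a1 lay near or under background. Col25a1, under background on all 6 arrays, was called lower with the replicate number as a block (adjusted p = 0.0306, against 0.217 without it).

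Of 3 prolyl 4-hydroxylase alpha subunits 1 was lower, against 15.7% of all genes, and the other 2 did not pass. P4ha2 had 531, 616 and 760.3 in IMCD, against 3305, 3828 and 3504 in nonIMCD, a difference of -2.46 ± 0.17 (SE, adjusted p = 0.000623) or 5.51-fold lower in IMCD. A dimmer P4ha2 probe set gave -2.62 (adjusted p = 0.025). P4ha1, which encodes the alternative alpha subunit of the same enzyme, had 3949, 4429.9 and 4778 in IMCD, against 3706, 3626 and 3399 in nonIMCD. Its IMCD arrays were all higher, but the difference of 0.29 ± 0.13 missed the threshold (SE, adjusted p = 0.18). Median centring brought P4ha1 past it (0.58, adjusted p = 0.0262), and so did an intensity trend (adjusted p = 0.0424), while adjusted p reached 0.369 in other settings.

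The log2 ratio of P4ha2 to P4ha1 within an array was -2.89, -2.85 and -2.65 in IMCD, against -0.17, 0.08 and 0.04 in nonIMCD. Its mean was -2.80 ± 0.13 in IMCD and -0.01 ± 0.13 in nonIMCD (SD, n = 3 each), a gap of -2.78 that no linear scaling of an array can change. The ratio includes each probe set's own brightness, so only its change between arrays is read. P4ha3 was at or near background (-0.37, adjusted p = 0.642).

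The promoter windows of these subunits are printed because the genes share a role and their ratio differed between the fractions. Both genes are known as targets of hypoxia-inducible factors in mammalian cells, whose binding core is ACGTG or GCGTG. The P4ha1 window is chr20:27844796-27845095 on the plus strand and the P4ha2 window chr10:38743644-38743943 on the plus strand, both GRCr8, from RefSeq and laid out like the earlier ones. Capitals mark the core on either strand (CACGT or CACGC when it is on the opposite one).
P4ha1: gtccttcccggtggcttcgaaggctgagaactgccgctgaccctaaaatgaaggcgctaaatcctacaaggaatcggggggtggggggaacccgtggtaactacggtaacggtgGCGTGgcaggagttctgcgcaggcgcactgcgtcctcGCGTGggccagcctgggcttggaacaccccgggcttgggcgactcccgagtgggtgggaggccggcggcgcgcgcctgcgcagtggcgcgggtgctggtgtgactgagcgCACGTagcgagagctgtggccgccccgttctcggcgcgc
P4ha2: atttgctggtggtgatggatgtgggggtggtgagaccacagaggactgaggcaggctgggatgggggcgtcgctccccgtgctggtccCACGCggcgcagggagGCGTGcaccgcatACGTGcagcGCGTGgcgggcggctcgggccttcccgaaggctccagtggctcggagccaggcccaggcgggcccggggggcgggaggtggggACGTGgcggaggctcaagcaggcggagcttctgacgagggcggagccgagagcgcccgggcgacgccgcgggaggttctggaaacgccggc
The P4ha1 window held the first spelling 1 time and the second 2 times, and the P4ha2 window 2 and 3 times. The motif ACGTG was present in 6 of 44 member windows and in 19.3% of all 33469 windows. The motif GCGTG was present in 21 of 44 member windows and in 29.7% of all windows. These matches are letters in a window and not measured sites.

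Of 3 lysyl hydroxylases 1 was lower, against 15.7% of all genes, and 2 did not pass. Plod2, which hydroxylates the telopeptide lysines used for cross-links, had 3117, 3449.8 and 2961 in IMCD, against 4539, 5262 and 4266 in nonIMCD (-0.56 ± 0.14, SE, adjusted p = 0.0408). That call was lost without any 1 of the 6 arrays, with differences of -0.62 to -0.47 in those fits, with the replicate number as a block and under median centring (-0.27), and adjusted p ran from 0.00222 to 0.231. Plod3, which also adds sugars to hydroxylysine, had 4471, 4918 and 5615 in IMCD, against 4413, 4186 and 5379 in nonIMCD (0.10 ± 0.16, adjusted p = 0.697). Plod1 had 1524, 1396 and 1314 in IMCD, against 1839, 1467 and 1371 in nonIMCD, which overlapped (-0.13 ± 0.16, adjusted p = 0.605). The within-array log2 ratio of Plod2 to Plod3 averaged -0.65 in IMCD and 0.01 in nonIMCD.

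Serpinh1, the procollagen chaperone, had 1541, 1728 and 1557 in IMCD, against 3859, 4797 and 4326 in nonIMCD. It differed by -1.41 ± 0.14 (SE, adjusted p = 0.00178), on a probe set that may pick up more than 1 transcript by its design. A second probe set, under background on every IMCD array, was at least 1.35-fold lower (adjusted p = 0.0349). The within-array log2 ratio of Col3a1 to Serpinh1 was -3.02, -3.13 and -3.15 in IMCD and -1.26, -1.64 and -1.86 in nonIMCD, with means of -3.10 in IMCD and -1.59 in nonIMCD. The gap of -1.51 means that Col3a1 was lower in IMCD by more than its chaperone was.

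Of 4 lysyl oxidases 2 were lower and 2 did not pass. Loxl2, which cross-links type IV collagen, had 91.4, 80.6 and 169 in IMCD, against 410.4, 460.2 and 382 in nonIMCD (-1.80 ± 0.27, SE, adjusted p = 0.00734). Its second probe set gave -0.48 (adjusted p = 0.153). Lox, which cross-links fibrillar collagen and elastin, had 10.7, 78.4 and 58.9 in IMCD, against 145, 257 and 217 in nonIMCD, with 1 of 3 IMCD arrays just above background. Its call (-1.92 ± 0.51, adjusted p = 0.0462) was lost without IMCD replicate 3 (-2.11), without nonIMCD replicate 1 (-2.14), 2 (-1.76) or 3 (-1.87) and in 3 other settings, with adjusted p from 0.0154 to 0.13, while a second probe set gave -1.60 (adjusted p = 0.034).

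Loxl1, which acts on elastic fibres, had 15.8, 19.6 and 30.5 in IMCD, against 42.7, 80.4 and 142 in nonIMCD. It did not pass (-1.36 ± 0.38, SE, adjusted p = 0.0543). It passed without nonIMCD replicate 1 (-1.72, adjusted p = 0.0267), with the replicate number as a block (adjusted p = 0.0389) and in the fit by the mean of a gene's probe sets (adjusted p = 0.0417). Loxl3 overlapped between the fractions (-0.27, adjusted p = 0.521).

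**Figure D3:**
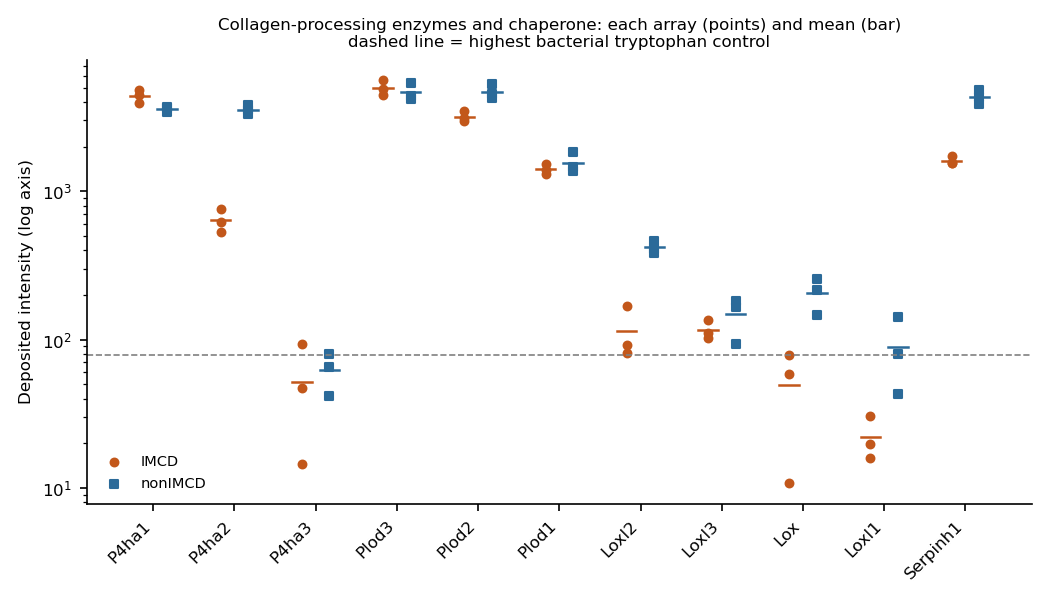
Deposited intensity, on a log axis, of the 11 enzyme and chaperone genes. Points are single arrays, with IMCD (orange circles) left of nonIMCD (blue squares), and short bars are means of 3 arrays. The dashed line is the highest tryptophan control, 78.4. P4ha2 is separated by a wide gap (531 to 760.3 in IMCD and 3305 to 3828 in nonIMCD), while P4ha1, Plod1 and Plod3 lie close together.

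Of 18 members with more than 1 probe set, 12 were called. For 10 of these another probe set of the gene was called in the same direction, for 2 (Col6a3 and Loxl2) none was, and 0 probe sets were called in the opposite direction. Of the 20 called genes 15 kept their call in every alternative run for them, with differences of -2.83 to -0.92, and the other 5 were Col1a2, Col4a4, Col6a3, Plod2 and Lox. All 20 stayed negative in each of the 14 alternatives that tested them.

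Array scaling moved the sizes but not the directions of the called genes. Median centring raised the median of all genes to 0.19 and quantile normalization to 0.02, against -0.09 as deposited. Under median centring 16 members were lower and 1 higher (10.2% and 20.2% of all genes), and under quantile normalization 17 lower and 0 higher (12.8% and 11.7%). The member median was then -0.37 and -0.57. In the other fits with all arrays, members numbered 18 lower and 0 higher with a pseudocount of 1 (14.6% and 9.38% of all genes), 20 and 0 with 64 (17.9% and 11.5%), 20 and 1 with an intensity trend (20.6% and 14.5%), 21 and 0 with the replicate number as a block (11.2% and 6.99%) and 20 and 0 by the mean of a gene's probe sets (17.1% and 12.3%). With dim probe sets left out 19 of 29 members were lower (24.6% and 16.9% of all genes lower and higher). That filter used the mean of all 6 arrays, so a gene could pass through 1 fraction alone. Col1a2 did, with a log2 mean of 6.24 in IMCD and 8.71 in nonIMCD. Without IMCD replicate 1, 2 or 3, members numbered 17, 20 and 17 lower (10.6%, 11.7% and 11.8% of all genes), and without nonIMCD replicate 1, 2 or 3 they numbered 17, 16 and 18 (10.2%, 10.6% and 12.2%). In those fits 0 members were higher, against 5.83%, 6.54%, 6.49%, 6.21%, 6.96% and 8.10% of all genes in the same order.

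**Figure D4:**
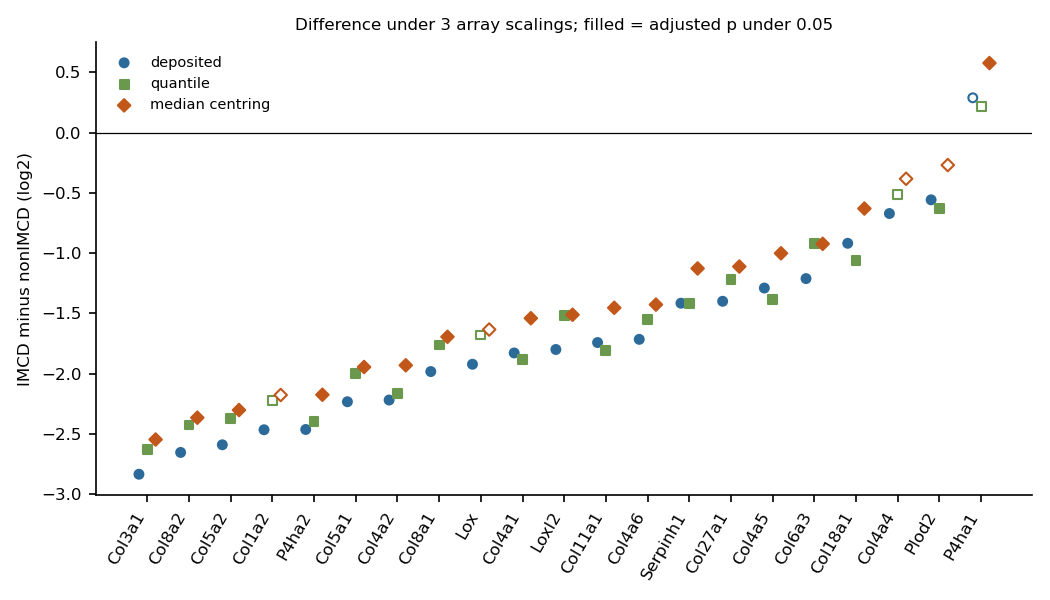
Difference between the fractions, IMCD minus nonIMCD on the log2 scale, for the 20 called genes and P4ha1 under the deposited scaling (circles), quantile normalization (squares) and median centring (diamonds). Filled symbols passed an adjusted p of 0.05. Every called gene stays below 0, from Col3a1 to Plod2, and P4ha1 is filled only under median centring (0.58).

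Other genes of the collagen pathway were followed through a list of 56 genes, of which 41 were measured by a probe set with 1 gene symbol. Of these 16 were lower in IMCD, 1 was higher and 24 did not pass, with a median difference of -0.46, against 15.7% of all genes lower, 10.0% higher and a median of -0.09. The lower count was 8 to 12 without 1 array (9, 12 and 10 without IMCD replicates 1, 2 and 3, and 8, 9 and 11 without nonIMCD replicates 1, 2 and 3) and 8 with the replicate number as a block, where 11.2% of all genes were lower. The block ended the calls of P3h1, P3h3, Colgalt2, Bmp1, Pcolce, Hspg2, Itgb1, Ddr2, Mmp2 and Ctsk. Calls of 7 genes (Bgn, Nid1, Nid2, Sparc, Fbn1, Fn1 and Colgalt1) held in all 14 alternatives.

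Of 12 matrix partners 7 were lower. Biglycan (Bgn), a small proteoglycan that binds fibrils, had 600.0, 293 and 596 in IMCD, against 5042, 4741 and 3908 in nonIMCD (-3.22 ± 0.31, SE, adjusted p = 0.00165). The nidogens link type IV collagen to laminin. Nid1 had 433, 709.8 and 915 in IMCD, against 5272, 3626 and 5846 in nonIMCD (-2.85 ± 0.33, adjusted p = 0.00287). Nid2 had 3697, 3539 and 3351 in IMCD, against 24668, 23406 and 25328 in nonIMCD (-2.79 ± 0.12, adjusted p = 0.000228), and neither gene overlapped between the fractions. Sparc, a collagen-binding protein, had 1708, 2004 and 1872 in IMCD, against 11129, 14529 and 11439 in nonIMCD (-2.71 ± 0.16, adjusted p = 0.000426). Fibrillin (Fbn1) differed by -2.49, fibronectin (Fn1) by -2.13 and perlecan (Hspg2) by -0.67. The Hspg2 call was lost without any 1 array other than nonIMCD replicate 3 (-0.73 to -0.59) and under median centring (-0.38, adjusted p = 0.11). Decorin (Dcn) had 106, 103 and 151 in IMCD, against 247, 328 and 887 in nonIMCD, and did not pass (-1.69, adjusted p = 0.0553). It passed in 7 alternatives (adjusted p = 0.0129 to 0.0499), among them without nonIMCD replicate 1 (-2.05) or 3 (-1.16).

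Inside the cell, 4 of 11 folding and modification genes were lower. They included both galactosyltransferases that add sugar to hydroxylysine. Colgalt1 had 676, 785 and 771 in IMCD, against 2409.5, 2452 and 2537 in nonIMCD (-1.71 ± 0.12, SE, adjusted p = 0.000709). Colgalt2, with 5.37, 77.1 and 7.28 in IMCD, all under background, against 258, 206 and 203 in nonIMCD, was at least 2.82-fold lower in IMCD (adjusted p = 0.0241). Its call was lost without any 1 array other than IMCD replicate 2 (adjusted p = 0.0628 to 0.0781) and with a pseudocount of 1 (adjusted p = 0.0525). The prolyl 3-hydroxylases P3h1 (-0.58) and P3h3 (-0.65) passed, and both calls were lost without IMCD replicate 1 (-0.50 and -0.62) or 3 (-0.58 and -0.54) and without nonIMCD replicate 1 (-0.57 and -0.67), 2 (-0.54 and -0.58) or 3 (-0.63 and -0.69), and that of P3h1 also without IMCD replicate 2 (-0.67). Both were also lost under median centring (-0.29 and -0.36) and quantile normalization (-0.34 and -0.48). P4hb, the beta subunit that completes prolyl 4-hydroxylase and also serves as protein disulfide isomerase, had 12452, 12809 and 13285 in IMCD, against 15678, 15309 and 14008 in nonIMCD (-0.22, adjusted p = 0.244).

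The steps of export and trimming had few measured genes. Of 3 secretion genes, among them Mia3 that packs procollagen for export (0.05, adjusted p = 0.814), 0 passed. Both measured propeptide genes were lower, the protease Bmp1 by -0.55 ± 0.14 (SE, adjusted p = 0.0433) and its enhancer Pcolce by -2.23 ± 0.46 (adjusted p = 0.0206). Neither call was stable, since that of Bmp1 was lost without any 1 of the 6 arrays (-0.62 to -0.46), under median centring (-0.26) and under quantile normalization (-0.28), and that of Pcolce without any but IMCD replicate 2 (-2.28 to -1.90).

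Of 5 receptor genes 2 were lower, against 15.7% of all genes. The integrin subunit Itgb1 differed by -0.45 (adjusted p = 0.0386), a call lost without any 1 array (-0.46 to -0.42) and under median centring (-0.16). The collagen receptor kinase Ddr2 differed by -1.44 (adjusted p = 0.0187), a call lost without nonIMCD replicate 1 (-1.37) or 3 (-1.38). Its relative Ddr1, which is found on epithelia, had 3467, 3717 and 3455 in IMCD, against 3679.6, 4103 and 3663 in nonIMCD (-0.10, adjusted p = 0.593).

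Of 8 breakdown genes 1 was lower and 1 higher, near the shares of all genes (15.7% lower and 10.0% higher). The gelatinase Mmp2 differed by -1.11 ± 0.20 (SE, adjusted p = 0.0135), and its call was lost without nonIMCD replicate 1 (-1.06). Cathepsin K (Ctsk), a protease that cleaves the collagen helix, was higher in IMCD. It had 2076, 2379 and 1664 in IMCD, against 965, 898 and 1154 in nonIMCD (1.00 ± 0.19, adjusted p = 0.015), without overlap. That call was lost without IMCD replicate 1 (0.98), nonIMCD replicate 1 (0.98) or nonIMCD replicate 2 (0.93). Under median centring the higher pathway genes numbered 4 (Ctsk, Fkbp14, Dpt and Mmp14) beside 11 lower, against 1 and 16 as deposited. Of all genes 20.2% were higher and 10.2% lower under that centring.

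**Figure D5:**
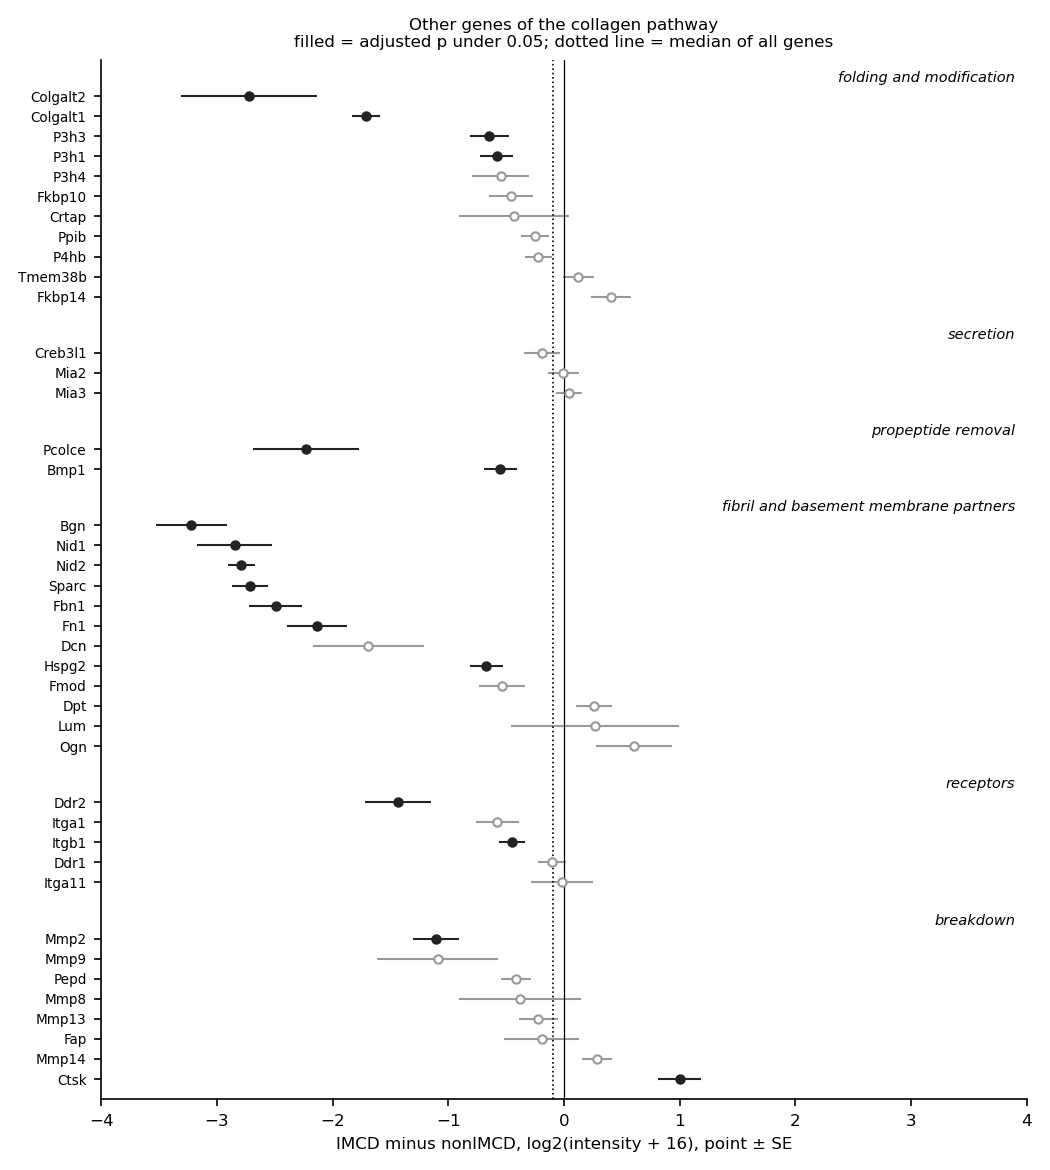
Difference between the fractions for the 41 measured pathway genes outside the collagen group, by step. The horizontal axis is the IMCD minus nonIMCD difference of log2(intensity + 16), points are estimates, bars are SE, and filled points passed an adjusted p of 0.05. The dotted line is the median of all genes at -0.09. Bgn lies farthest to the left at -3.22 and Ctsk is the only filled point to the right, at 1.00.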

How the data were processed

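RNA of 3 IMCD and 3 nonIMCD preparations was hybridised to Affymetrix rat arrays, about 3 µg each per the labels. The table deposited by the authors holds linear intensities, scaled to an equal trimmed mean (1000.3 to 1000.4 with 2% cut from each end), with software not given in the sources used here. Depth has no meaning for arrays, and their number limits the precision.

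Of 31099 probe sets 57 controls were left out. Probe sets were named from a 2016 annotation of the platform, and 20758 of their identifiers were found in RefSeq (GRCr8). Of those tested, 20826 had 1 symbol, 436 several and 9780 none. Values were analysed as log2(intensity + 16), with no filter, in limma 3.58.1 and R 4.3.3 (lmFit, eBayes, two-sided, 6 arrays, no covariate), with Benjamini-Hochberg adjustment over 31042 probe sets. The fit was tested on simulated data with changes placed only in probe sets above a mean log2 of 7. That test did not cover changes in dimmer genes. Alternatives were median centring, quantile normalization, pseudocounts of 1 and 64, a mean log2 minimum of 7, an intensity trend, the replicate number as a block, leaving out each array, and the mean of a gene's probe sets.

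The members and lists were chosen with earlier results of these data known. Every member is named or counted by role. Members past the threshold have their array values given, as do the brightest member of each role, and so do up to 4 pathway genes per direction, those past the threshold that differed most, and Sparc, since Colgalt2 among the 4 has only a bound. Other pathway genes were named after their values were seen, and a listed gene with no single-symbol probe set was not analysed here.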

Additional observations from a re-analysis of the deposited data

How the results depend on the processing

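The count of lower collagen and collagen-enzyme genes stayed within 1.5 times of 20 in all 14 alternatives, at 16 under median centring, 17 under quantile normalization, 18 with a pseudocount of 1, 20 with 64, 19 with dim probe sets left out and 16 to 20 without 1 array. The fit without dim probe sets tested 29 members and left Col8a1 and Lox out. Since its filter lets a gene pass through the brighter fraction alone, its count and median are not separate support. The count of higher genes was 1 under median centring and with an intensity trend, and 0 without 1 array. The member median was -0.37 under median centring, -0.84 and -0.53 with pseudocounts of 1 and 64, -1.21 with dim probe sets left out, and -0.83 to -0.66 without 1 array. Of the other pathway genes 8 to 12 were lower and 0 to 1 higher without 1 array, and 4 were higher under median centring, where 20.2% of all genes were higher. With the replicate number as a block 21 members were lower, 18 of the 20 (all but Col1a2 and Plod2) with Col6a2, Col25a1 and Loxl1, and 8 pathway genes were lower and 0 higher. Deviations of same-numbered arrays from their fraction's mean correlated at 0.04, 0.04 and 0.06 across probe sets, each the highest for its arrays. Correlations this small do not establish pairs. The replicate 1 arrays also carry different age labels, 6 weeks in IMCD and 10 weeks in nonIMCD, so the block may not follow true pairs. No collagen or pathway gene reversed a call. The array number and the dim signals, 24 of 52 genes not above background on all arrays, limit these results, and the cause of each change with the processing was not tested.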
